A study of Mus musculus with 16 samples.

Results

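The 10 collagen genes of the interstitial matrix were followed in heart muscle cells of B3AR-Tg and wild-type (WT) mice. They were chosen by symbol, as Col1a1, Col1a2, Col3a1, Col5a1, Col5a2, Col6a1, Col6a2, Col6a3, Col8a1 and Col14a1, and each matched a single row, so that 10 of the 35682 genes in the table are described. RNA was sequenced from adult ventricular myocytes of 8 WT littermates and 8 B3AR-Tg mice, a transgenic line whose name the labels do not spell out (B3AR is the usual short form of the beta-3 adrenergic receptor). Both groups were taken 9 weeks after TAC surgery, in which the aortic arch is constricted and the left ventricle has to pump against a raised load. No group without surgery was analysed here. The labels do not give the promoter or the species of the transgene, nor the sex or age of the animals. Cells were freed by Langendorff perfusion of the heart and kept on plates for an hour before RNA extraction, and the labels name no sort that would remove other cells.

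Collagens are proteins of 3 intertwined alpha chains. Types I and III form the fibrils that carry tension between myocytes, type V is built into the same fibrils and limits their width, type VI forms beaded filaments around cells, type VIII forms open networks, and type XIV decorates fibrils. In the heart these genes are known above all as products of fibroblasts, and their increase under pressure overload is a hallmark of interstitial fibrosis. Ventricular myocytes themselves are not their main known source.

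Promoter sequence is shown for the type I alpha 2 and type III alpha 1 genes. Col1a1 and Col6a1 were chosen for this as well, but Col1a1 had no promoter entry and the Col6a1 sequence is not printed. Each stretch covers the 250 bases before the gene start (RefSeq, GRCm38.p6), which for Col1a2 is chr6:4505368-4505617 on the plus strand and for Col3a1 is chr1:45311288-45311537 on the plus strand. Capitals mark the letters CCAAT, bound by the factor NF-Y, or their reverse complement, and GTCTG, a core of SMAD binding sites, or its reverse complement, both searched on both strands.
Col1a2: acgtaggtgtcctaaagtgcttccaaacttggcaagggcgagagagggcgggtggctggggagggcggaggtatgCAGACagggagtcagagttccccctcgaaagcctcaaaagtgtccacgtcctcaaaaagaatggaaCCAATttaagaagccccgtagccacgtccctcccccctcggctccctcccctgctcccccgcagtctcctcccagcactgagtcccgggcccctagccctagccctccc
Col3a1: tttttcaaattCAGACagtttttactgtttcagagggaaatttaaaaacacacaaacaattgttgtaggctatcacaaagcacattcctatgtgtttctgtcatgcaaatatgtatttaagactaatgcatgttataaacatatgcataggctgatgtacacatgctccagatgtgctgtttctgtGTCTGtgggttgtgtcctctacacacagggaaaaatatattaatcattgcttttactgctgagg
Col1a2 held CCAAT starting 109 bases before the gene start and the reverse form of GTCTG at 175 bases. Col3a1 held GTCTG at 64 bases and its reverse form at 239 bases, and no CCAAT. The window of Col6a1 held 0 matches to either motif. There were 8 promoter entries for 7 of the 10 genes. CCAAT was present in 1 of the 8 entries (Col1a2), beside 33.8% of all 32851 entries of this length. GTCTG was present in 6 of the 8 entries, those of 6 genes, beside 42.2% of all entries. Matches of 5 letters are a description only.

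Libraries ranged from 5985335 to 14365864 counts. Adrb3, the mouse beta-3 receptor gene, held 0 to 4 counts in WT and 0 to 3 in B3AR-Tg, so it does not check the transgene, whereas Adgrb3, an adhesion receptor gene, separated every library by its label with 0 to 3 counts in WT and 247 to 723 in B3AR-Tg. Markers of myocytes dominated, with 10 genes that summed to between 75100 and 118000 CPM (read counts scaled to a common library size with TMM factors) in single animals. The 10 collagens together summed to far less. WT animals held 31.0 to 118 CPM (median 68.2), from 211 to 1384 counts, and B3AR-Tg animals held 11.8 to 38.1 CPM (median 20.8), from 134 to 489 counts. The highest count of any of these genes in any library was 356 (Col3a1), so counting error weighs on all values below.

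All 10 collagens had lower mean levels in B3AR-Tg than in WT, and 7 of them passed the test. Those were Col1a1, Col1a2, Col3a1, Col5a2, Col6a1, Col6a2 and Col8a1, each between 2.62-fold and 5.23-fold lower, while Col5a1, Col6a3 and Col14a1 did not pass. The test was edgeR's quasi-likelihood F test across the 10945 genes that passed a low-count filter, with Benjamini-Hochberg adjusted p-values under 0.05 taken as called. Over all tested genes 2.88% were called lower in B3AR-Tg and 4.91% were called in either direction. All 7 were also at least 2-fold lower, as were 1.11% of tested genes, and 0 of the 10 were called higher, beside 2.03%. The median log2 fold change of the 10 collagens was -1.70, beside 0.01 over all tested genes. Since the 10 were chosen with earlier results of these data known, these shares are a description and not a test of the list. All 10 passed the filter, but Col1a1 and Col14a1 passed it mainly through WT, since 1 of 8 B3AR-Tg libraries was above its level of 1.02 CPM for each. In RNA of a cell preparation, fewer cells of a type and less RNA per cell cannot be told apart.

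**Figure D1:**
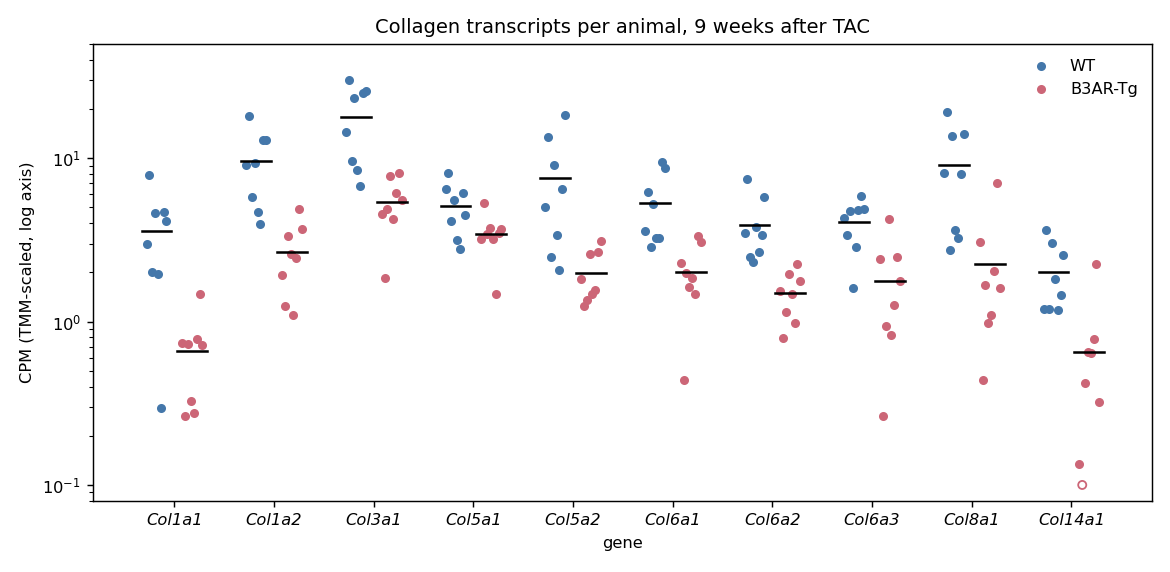
Level of each of the 10 collagens in every animal, as CPM on a log axis, with 8 WT (blue) and 8 B3AR-Tg (red) animals a gene. Black bars are group means, and the open circle at the bottom is Col14a1 in B3AR-Tg replicate 2, which held 0 counts. Only for Col6a2 do the groups not overlap.

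The fibrillar chains of types I and III were below the WT median in every B3AR-Tg animal, as were Col5a2, Col6a1, Col6a2, Col6a3 and Col8a1. Col1a1 (ENSMUSG00000001506, chromosome 11), the alpha 1 chain of type I collagen, was at 0.294, 3.56 and 7.90 CPM (lowest, median and highest animal) in WT and at 0.265, 0.727 and 1.48 CPM in B3AR-Tg. The groups overlapped only through WT replicate 6, which held 2 counts, under the floor of 3 counts taken as detection. The other 7 WT animals were at 1.96 CPM or above. Means were 3.58 ± 2.32 CPM in WT against 0.665 ± 0.399 CPM in B3AR-Tg (SD, n = 8 each, as for all means below). The log2 fold change was -2.39 (standard error 0.44, edgeR adjusted p = 0.00507). Counts behind the B3AR-Tg values were 2 to 19 a library.

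Col1a2 (ENSMUSG00000029661, chromosome 6), the alpha 2 chain that pairs with Col1a1, was at 3.97, 9.20 and 18 CPM in WT and at 1.10, 2.52 and 4.90 CPM in B3AR-Tg. In all, 7 B3AR-Tg animals lay below every WT animal, and replicate 7 of that group overlapped the low end of WT. It was 3.62-fold lower (9.59 ± 4.83 against 2.66 ± 1.29 CPM, log2 fold change -1.86, standard error 0.32, edgeR adjusted p = 0.00382). Col3a1 (ENSMUSG00000026043, chromosome 1), the single chain of type III collagen and the member with the most counts, was at 6.77, 18.8 and 30.2 CPM in WT and at 1.85, 5.22 and 8.10 CPM in B3AR-Tg. In 6 of 8 B3AR-Tg animals it was below every WT animal. Its means were 18 ± 9.18 and 5.39 ± 2.02 CPM (log2 fold change -1.76, standard error 0.31, edgeR adjusted p = 0.00397).

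The 2 chains of type V collagen, which co-assembles with type I, gave different values. Col5a2 (ENSMUSG00000026042, chromosome 1, next to Col3a1 with 0 protein-coding genes between them in RefSeq GRCm38.p6) was at 2.06, 5.74 and 18.5 CPM in WT and at 1.24, 1.69 and 3.13 CPM in B3AR-Tg. WT animals were spread 8.97-fold and B3AR-Tg animals 2.53-fold, and 5 B3AR-Tg animals lay below every WT animal. It was 3.89-fold lower (7.56 ± 5.83 against 1.98 ± 0.713 CPM, log2 fold change -1.96, standard error 0.39, edgeR adjusted p = 0.00771). Col5a1 (ENSMUSG00000026837, chromosome 2), the alpha 1 chain found in nearly all type V molecules, was at 2.79, 5.03 and 8.07 CPM in WT and at 1.47, 3.47 and 5.30 CPM in B3AR-Tg. The groups overlapped broadly, with 1 B3AR-Tg animal below every WT animal. Its log2 fold change was -0.58, with a standard error of 0.23 and a 95% interval from -1.06 to -0.10, and it did not pass over all genes (5.10 ± 1.79 against 3.45 ± 1.04 CPM, edgeR adjusted p = 0.162, unadjusted p = 0.0206).

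Type VI collagen is assembled from 3 different chains in these genes. Col6a1 (ENSMUSG00000001119, chromosome 10) was at 2.85, 4.43 and 9.51 CPM in WT and at 0.442, 1.91 and 3.35 CPM in B3AR-Tg. It was 2.62-fold lower (5.33 ± 2.61 against 2.00 ± 0.916 CPM, log2 fold change -1.39, standard error 0.32, edgeR adjusted p = 0.0159). Col6a2 (ENSMUSG00000020241), its neighbour on chromosome 10 with 0 protein-coding genes between them, was at 2.32, 3.42 and 7.48 CPM in WT and at 0.795, 1.5 and 2.26 CPM in B3AR-Tg. Here all 8 B3AR-Tg animals lay below all 8 WT animals, by a narrow margin, as for 0.247% of all tested genes. Means were 3.92 ± 1.81 and 1.49 ± 0.499 CPM (log2 fold change -1.41, standard error 0.27, edgeR adjusted p = 0.00668).

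Col6a3 (ENSMUSG00000048126, chromosome 1), the longest chain of the type, was at 1.61, 4.53 and 5.85 CPM in WT and at 0.265, 1.52 and 4.22 CPM in B3AR-Tg. B3AR-Tg replicate 4 was the highest of its group at 4.22 CPM, and WT replicate 4 the lowest of its own at 1.61 CPM. Means were 4.07 ± 1.36 and 1.77 ± 1.26 CPM, a log2 fold change of -1.22 (standard error 0.36, 95% interval -1.97 to -0.47) that missed the threshold (edgeR adjusted p = 0.0542). It passed without WT replicate 4 (adjusted p = 0.0444), B3AR-Tg replicate 4 (0.0203) or B3AR-Tg replicate 7 (0.0468).

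On the log2 scale, the network and fibril-decorating collagens had the largest SDs within B3AR-Tg (1.05 and 1.08). Col8a1 (ENSMUSG00000068196, chromosome 16), a short-chain collagen of vessel walls and remodelled matrix, was at 2.73, 8.10 and 19.1 CPM in WT and at 0.442, 1.64 and 7.08 CPM in B3AR-Tg. In all, 6 B3AR-Tg animals lay below every WT animal, and replicate 7 was above the others of its group, which reached at most 3.08 CPM. It was 3.94-fold lower (9.09 ± 6.01 against 2.25 ± 2.11 CPM, log2 fold change -1.98, standard error 0.46, edgeR adjusted p = 0.0169). Col14a1 (ENSMUSG00000022371, chromosome 15), a fibril-associated collagen, was at 1.18, 1.65 and 3.65 CPM in WT, but at 0, 0.530 and 2.26 CPM in B3AR-Tg, where replicate 2 held 0 counts, which allows up to 0.265 CPM by counting error. In all, 7 B3AR-Tg animals lay below every WT animal, and replicate 7 lay within the WT range. Its log2 fold change of -1.64 had a standard error of 0.48 and missed the threshold (2.01 ± 0.957 against 0.651 ± 0.702 CPM, edgeR adjusted p = 0.0551). Without B3AR-Tg replicate 7 it was -2.34 (adjusted p = 0.00479), and it also passed without WT replicate 3 (adjusted p = 0.0470).

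Compared per kilobase of the longest protein-coding transcript in GENCODE M21, Col3a1 had the highest level of the 10 in 8 of 8 WT and 7 of 8 B3AR-Tg animals. Its level was 3.23 ± 1.65 CPM per kb in WT and 0.969 ± 0.363 in B3AR-Tg. In WT it was followed by Col1a2 (1.79 ± 0.903 CPM per kb), Col8a1 (1.78 ± 1.18), Col6a1 (1.30 ± 0.637), Col5a2 (1.14 ± 0.880) and Col6a2 (0.843 ± 0.389). The lowest 4 were Col5a1 (0.607 ± 0.213), Col1a1 (0.603 ± 0.390), Col6a3 (0.403 ± 0.135) and Col14a1 (0.312 ± 0.148). In WT, neighbours in this order differed by less than the larger of their SDs. In B3AR-Tg the order began likewise with Col3a1 and Col1a2 and ended with Col14a1, and Col3a1 exceeded Col1a2 (0.497 ± 0.241) by more than either SD, while Col5a1 (0.410 ± 0.124 CPM per kb) moved from place 7 to place 5. In the B3AR-Tg animal where Col3a1 was not the highest, replicate 2, Col5a1 was.

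As a share of the summed counts of the 10 genes, Col3a1 took 25.7% ± 2.95 in WT and 24.1% ± 5.30 in B3AR-Tg, and Col1a2 took 14% ± 1.55 and 11.6% ± 3.24. The share of Col5a1 was 8.15% ± 2.20 in WT and 17.8% ± 11.6 in B3AR-Tg. Replicate 2 raised the B3AR-Tg mean, with Col5a1 at 60 of its 134 summed counts. That of Col1a1 was 4.87% ± 1.76 and 2.89% ± 1.07. These shares are given as a description, since a fall in some members raises the share of the others.

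Ratios within each library were used to ask whether some collagens fell more than others. Of 21 ratios tested by exact permutation over the 12870 divisions of the animals into 8 and 8 (two-sided, smallest possible p = 0.000155), 0 passed after adjustment over the 21 and 2 had an unadjusted p under 0.05. The largest difference between 2 collagens was that of Col5a1 over Col5a2. Its log2 ratio was -0.27 ± 0.88 in WT but 0.79 ± 0.69 in B3AR-Tg. The difference was 1.06 (95% interval 0.24 to 1.92, exact permutation p = 0.0129, adjusted p = 0.162), and 7 of 8 B3AR-Tg animals were at or above the WT median. B3AR-Tg replicate 2 had the highest ratio of its group, with 60 counts of Col5a1 and 14 of Col5a2. The Col1a1 to Col1a2 ratio differed by -0.33 (95% interval -0.91 to 0.34, exact permutation p = 0.328, adjusted p = 0.540). The ratio of Col3a1 to Col1a2 had the narrowest interval, with a difference of 0.18 (95% interval -0.23 to 0.59, exact permutation p = 0.394, adjusted p = 0.540). Within type VI, Col6a2 over Col6a1 differed by 0.10 (-0.54 to 0.74) and Col6a3 over Col6a1 by -0.01 (-0.86 to 0.86).

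**Figure D2:**
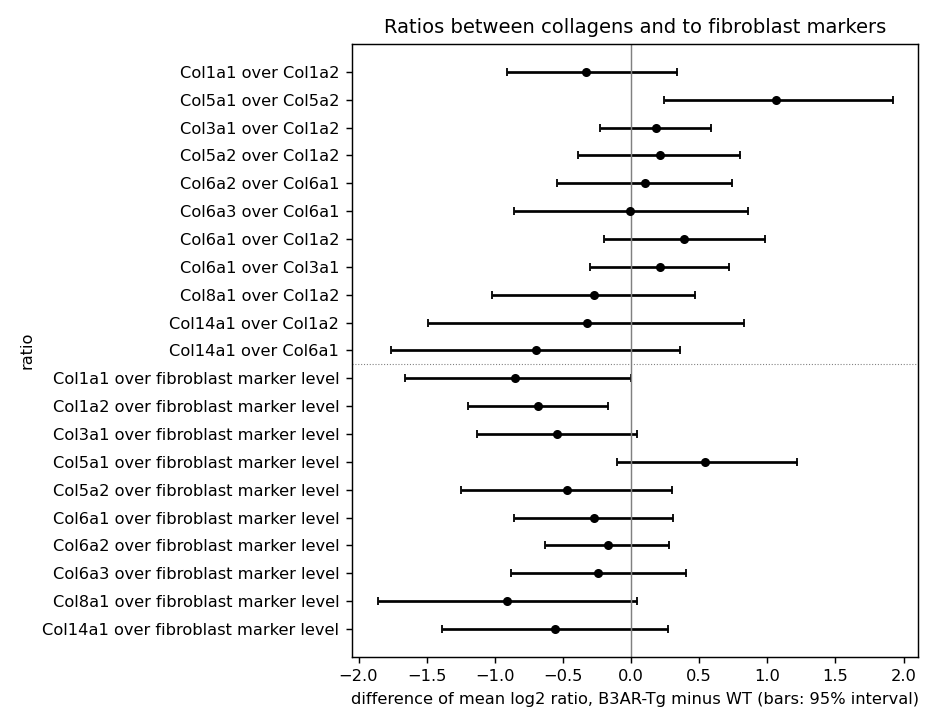
Difference between genotypes in 21 log2 ratios, with B3AR-Tg minus WT on the x axis and 95% intervals from the exact permutation test as bars. Above the dotted line 2 collagens are set against each other, and below it each collagen is set against the fibroblast marker level. Col5a1 over Col5a2 lies furthest to the right, at 1.06.

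Markers of fibroblasts, the main known source of these collagens, moved with genotype too. Of 10 fibroblast markers that are not collagens, 7 were tested and all 7 were lower by sign. Dcn, the proteoglycan decorin (log2 fold change -1.25, edgeR adjusted p = 0.0130), and Mmp2, a matrix protease (-1.51, adjusted p = 0.0290), passed, and 5 did not. The Mmp2 call was lost without any 1 of 5 animals (adjusted p from 0.0513 without B3AR-Tg replicate 6 to 0.0658 without WT replicate 4; also WT replicates 2 and 8 and B3AR-Tg replicate 5). Summed over the 10 markers the levels were 70.8 to 143 CPM in WT and 27.0 to 99.9 CPM in B3AR-Tg, and Tcf21, a defining transcription factor, held at most 3 counts in any library. The mean log2 CPM of the 7 tested markers, called the fibroblast marker level here, was 0.53 ± 0.34 in WT and -0.53 ± 0.64 in B3AR-Tg relative to the mean of the 16 animals (difference -1.07, exact permutation p = 0.00109). With this level as a covariate, 9 of the 10945 genes (0.0822%) and 0 of the 10 collagens were called by edgeR. At an unadjusted p under 0.05 the numbers were 1382 genes and 0 collagens. All 10 log2 fold changes then stayed below 0, from -0.25 for Col6a3 (95% interval -1.21 to 0.70) to -1.11 for Col5a2 (-2.26 to 0.04). Because the covariate itself differed with genotype, genotype and marker level overlap in this fit, and the intervals are wide.

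**Figure D3:**
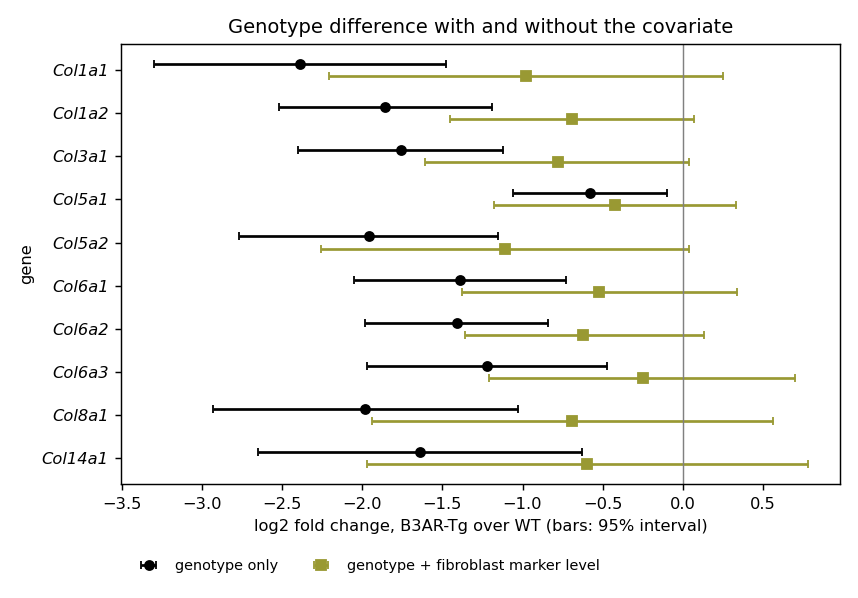
Log2 fold change of each collagen, B3AR-Tg over WT, with 95% intervals, from the fit with genotype alone (black circles) and with the fibroblast marker level as a covariate (olive squares). With the covariate all 10 values lie nearer to 0, between -0.25 and -1.11, and every interval includes 0.

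Each collagen was also set against the fibroblast marker level within a library. Col1a2 was lower relative to it by 0.68 on the log2 scale (95% interval -1.20 to -0.17, exact permutation p = 0.0154, adjusted p = 0.162), and 8 of 8 B3AR-Tg animals were below the WT median. Col1a1 differed by -0.85 (-1.66 to 0.00, exact permutation p = 0.0535, adjusted p = 0.280) and Col8a1 by -0.91 (-1.86 to 0.04, exact permutation p = 0.0601, adjusted p = 0.280). Without WT replicate 6 the Col1a1 difference was -1.13 and passed (adjusted p = 0.0326). The 3 type VI chains differed by -0.17 to -0.27, with intervals that reached from -0.88 to 0.40. Col5a1 was the one member with a positive difference, 0.54 (-0.10 to 1.22, exact permutation p = 0.105, adjusted p = 0.367). B3AR-Tg replicate 2 held the highest Col5a1 of its group (5.30 CPM) at the lowest marker level (-1.54).

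Markers of other cells were lower as well in part. Endothelial markers were lower by sign for 10 of 10 tested genes, 3 of which passed (Pecam1, -0.73; Flt1, -0.70; Emcn, -1.0), with summed levels of 121 to 174 CPM in WT and 56.3 to 190 CPM in B3AR-Tg. The calls of Flt1 and Emcn were each lost without several single animals, at adjusted p of up to 0.0608 (without B3AR-Tg replicate 5) for Flt1 and 0.0850 (without B3AR-Tg replicate 5) for Emcn. Mural cell markers summed to 90.6 to 165 CPM in WT (median 98.9) and 48.6 to 145 CPM in B3AR-Tg (median 105). Of 7 tested 6 were lower by sign and 0 passed. Acta2 was higher by sign (log2 fold change 0.42, edgeR adjusted p = 0.366). Of 10 leukocyte markers 3 were tested and 0 passed, with sums of 5.34 to 20.2 and 1.32 to 8.95 CPM. Schwann cell and mesothelial markers reached at most 5.97 CPM in sum, and none was tested. Of 8 markers of activated fibroblasts 3 were tested, and all 3 were called lower. These were Postn (periostin, log2 fold change -2.56, edgeR adjusted p = 0.0110), Cilp (-2.84, adjusted p = 0.0137) and Ltbp2 (-2.07, adjusted p = 0.0159). Ltbp2 did not pass with limma voom (adjusted p = 0.0603), nor Cilp with a replicate block (0.0554). Cilp and Ltbp2 passed the low-count filter mainly through WT. Above its level of 1.02 CPM were 3 and 2 of 8 B3AR-Tg libraries, beside 8 and 6 WT libraries. The part of the cell makeup of the preparations in the collagen levels was not tested beyond the covariate and ratios above.

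Within a group, log2 CPM of each collagen was spread wider than that of the median tested gene. The SD of log2 CPM was 0.506 (Col5a1) to 1.22 (Col1a1) in WT and 0.446 (Col6a2) to 1.08 (Col14a1) in B3AR-Tg, beside medians of 0.275 and 0.267 over all tested genes. Those medians are not matched for level. A filter of at least 5 CPM in 8 animals kept 8011 genes but 1 collagen, and counting error widens the spread at low counts. Its part in these SDs was not tested. WT replicate 2 held the highest level of 7 of the 10 genes in its group and WT replicate 6 the lowest of 6. B3AR-Tg replicate 7 was highest for 7 and B3AR-Tg replicate 2 lowest for 8 in theirs. B3AR-Tg replicate 2 was at the same time the highest of its group for Col5a1, at 5.30 CPM.

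The load marker Nppa, the gene of atrial natriuretic peptide, was itself lower in B3AR-Tg (563 ± 556 against 35.4 ± 36.5 CPM, log2 fold change -3.99, edgeR adjusted p = 0.00362). Among WT animals it was at 1080 to 1350 CPM in replicates 2, 4 and 8 and at 78.4 to 330 CPM in the other 5. The summed collagens of WT replicates 2, 4 and 8 were 118, 77.7 and 102 CPM. Replicates 1, 3, 5, 6 and 7 held 58.8, 38.1, 37.1, 31.0 and 83.4 CPM at Nppa levels of 330, 109, 124, 78.4 and 196 CPM. Over the 8 WT animals, Pearson's r with Nppa on log2 CPM was between -0.395 (Col6a3) and 0.953 (Col8a1), with a median of 0.792. By r, 5 of 10 collagens passed (Col1a1, Col3a1, Col5a2, Col8a1 and Col14a1), and by Spearman's rho 2 passed (Col5a2 and Col8a1). Col8a1 had r = 0.953 (exact permutation p = 0.00236, adjusted p = 0.0314) and rho = 0.952 (exact permutation p = 0.00114, adjusted p = 0.0152). Col5a2 had r = 0.952 (exact permutation p = 0.000546, adjusted p = 0.0109) and rho = 0.976 (exact permutation p = 0.000397, adjusted p = 0.00794). Without the 2 animals farthest from the median Nppa level, WT replicates 2 and 8, r was 0.927 for Col8a1 and 0.906 for Col5a2. Of the animals left, replicate 4 alone lies above 330 CPM of Nppa, and r without that animal as well was not computed. Because WT animals lie on both sides of a gap in Nppa, the values over all 8 partly set 3 animals against 5. Neither side holds enough animals for a value of its own. Within B3AR-Tg, r with Nppa was between -0.03 and 0.664, and 0 passed an exact permutation test at adjusted or unadjusted p.

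Relations with the fibroblast marker level were computed within each genotype over 8 animals, with p-values adjusted over 40 relations in all, those with Nppa included. In B3AR-Tg, r was between -0.144 (Col5a1) and 0.950 (Col5a2), and 6 of 10 collagens passed by Pearson's r. Col5a2 had r = 0.950 (exact permutation p = 0.000298, adjusted p = 0.0109) and Spearman's rho = 0.976 (exact permutation p = 0.000397, adjusted p = 0.00794), and r was 0.938 without the 2 animals farthest from the median marker level. For Col3a1, r was 0.832 (exact permutation p = 0.00583, adjusted p = 0.0476) and 0.902 without those animals, and rho was 0.762 (exact permutation p = 0.0368, adjusted p = 0.134). The others that passed were Col1a2 (r = 0.823), Col6a1 (0.794), Col6a2 (0.821) and Col6a3 (0.847), each at an exact permutation adjusted p of 0.0476. Without the same 2 B3AR-Tg animals, r was 0.734 for Col1a2, 0.479 for Col6a1, 0.715 for Col6a2 and 0.864 for Col6a3. By rho, only Col5a2 passed in this group. In WT, r was between 0.167 and 0.843 and with TMM scaling Col5a1 alone passed (r = 0.843, exact permutation p = 0.00851, adjusted p = 0.0476; rho = 0.810, exact permutation p = 0.0218, adjusted p = 0.0968), with r = 0.557 without the 2 farthest animals. With library size scaling, Col1a1 (r = 0.844, exact permutation, adjusted p = 0.0374) and Col1a2 (r = 0.821, adjusted p = 0.0374) passed in WT too. For Col1a1 in WT, r went from 0.784 to 0.01 without them, so that value rests on those 2 animals. Whether the relations differ between genotypes was not tested.

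**Figure D4:**
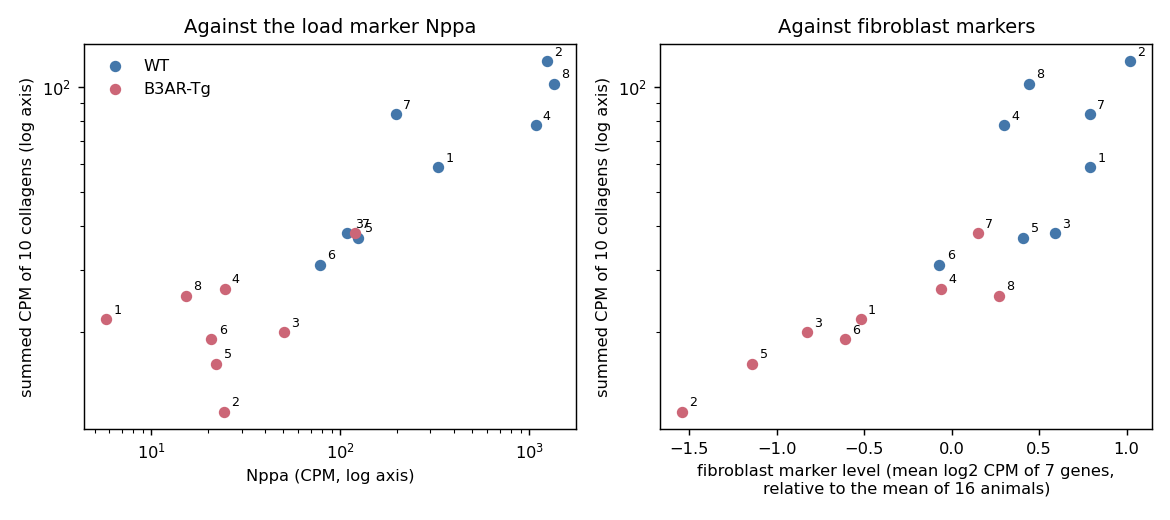
Summed CPM of the 10 collagens (log axis) in each animal against Nppa in CPM (left, log axis) and against the fibroblast marker level (right, mean log2 CPM of 7 genes relative to the mean of 16 animals). Points are animals labelled with their replicate number, 8 WT in blue and 8 B3AR-Tg in red. WT replicates 2, 4 and 8 lie at 1080 to 1350 CPM of Nppa, and B3AR-Tg replicate 2 is lowest on both the collagen axis (11.8 CPM) and the marker axis (-1.54).

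Genes that make, trim and bind collagen did not all move with the chains. Of 20 genes for chain modification and folding 18 were tested and 0 were called, beside 4.91% of all tested genes. At that share, 0 of 18 does not set this list apart. In it, 12 of 18 were lower by sign, with a median log2 fold change of -0.13. Among them Serpinh1, the collagen chaperone HSP47, averaged 59.0 ± 15.4 CPM in WT animals and 71.1 ± 28.6 CPM in transgenic animals (log2 fold change 0.27, edgeR adjusted p = 0.504). P4ha1, a subunit of prolyl 4-hydroxylase, had a log2 fold change of -0.18 (adjusted p = 0.671) and Plod1, a lysyl hydroxylase, of 0.34 (adjusted p = 0.155). P4hb was at -0.34 (edgeR adjusted p = 0.0983). The 18 ranged from -0.73 for P3h2 (edgeR adjusted p = 0.294) to 0.60 for P3h4 (adjusted p = 0.077). Of 14 genes for procollagen cleavage, cross-linking and assembly 9 were tested, and 4 were called, all lower. Sparc, a collagen-binding secreted protein, fell from 39.5 ± 17.8 to 17.0 ± 4.02 CPM (log2 fold change -1.23, edgeR adjusted p = 0.00382). Fn1 (fibronectin, -1.65, adjusted p = 0.0229), Loxl2 (a lysyl oxidase that cross-links chains, -1.49, adjusted p = 0.0191) and Pcolce2 (an enhancer of procollagen C-proteinase, -0.98, adjusted p = 0.00931) were the others. Fn1 missed the threshold without WT replicate 8 (adjusted p = 0.0549) or B3AR-Tg replicate 5 (0.0514). Bmp1, which encodes that proteinase, had a log2 fold change of 0.03 (adjusted p = 0.959). Among 9 collagen receptors 4 were tested, and Itga1, the integrin alpha 1 subunit, was called lower (35.7 ± 4.97 against 23.1 ± 6.50 CPM, log2 fold change -0.64, edgeR adjusted p = 0.0199). Without B3AR-Tg replicate 5 it missed the threshold (adjusted p = 0.0502).

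Of the 34 other collagen genes 7 were tested and 3 were called, all lower and all of the basement membrane and multiplexin list. Col4a1, a basement membrane chain made by many cell types, averaged 158 ± 47.4 CPM in WT animals and 97.1 ± 18.7 CPM in transgenic animals (log2 fold change -0.71, edgeR adjusted p = 0.0161). Col15a1 (-1.23, adjusted p = 0.0202) and Col18a1 (-1.39, adjusted p = 0.0341) were the other 2. Col18a1, at 3 to 12 counts in B3AR-Tg libraries, missed the threshold without B3AR-Tg replicate 1, 2, 3, 5 or 8 (adjusted p = 0.0532 to 0.0798). Col12a1, a fibril-associated relative of Col14a1, had a log2 fold change of -0.69 (adjusted p = 0.265). Col11a2 was the only tested fibrillar relative, with a log2 fold change of 0.87 (adjusted p = 0.135). In total 11 of the 34 held at most 3 counts in any library.

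**Figure D5:**
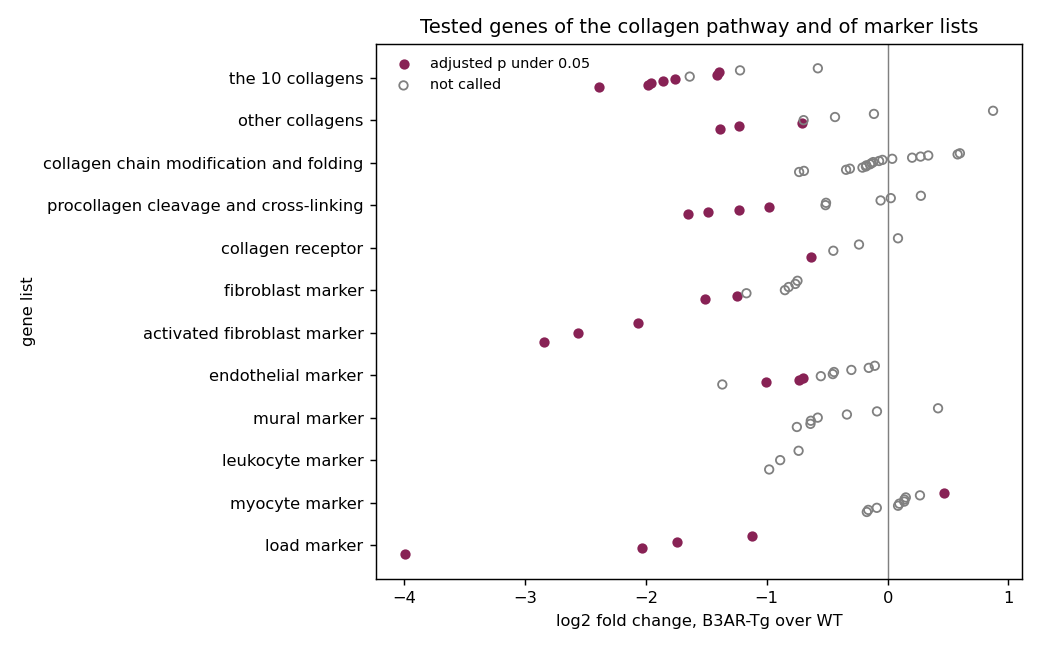
Log2 fold change (B3AR-Tg over WT) of every tested gene of the 10 collagens, of other collagens, of collagen pathway lists and of marker lists, with filled points for an edgeR adjusted p under 0.05. Chain modification and folding genes lie on both sides of 0 with 0 of 18 called, beside 4.91% of all tested genes. Called lower are 7 of 10 collagens and 3 of 3 tested activated fibroblast markers, beside 2.88% of all tested genes.

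Finally, genes outside the 10 were ranked by how closely their deviations from the genotype means followed the mean deviation of the 10 collagens over the 16 animals (Pearson's r of log2 CPM, as a measure of likeness with no test). The closest was Cspg4, the pericyte proteoglycan NG2 (r = 0.919), followed by Postn (0.918), Bgn (biglycan, 0.912) and Fbln2 (fibulin-2, 0.909). Mfsd6 (0.905), Plcb4 (a phospholipase C, 0.890), Mpp6 (0.886), Fbn1 (fibrillin-1, 0.884), Fstl1 (0.879) and Igfbp7 (0.872) came next. In total 6 of the 10 were called lower in B3AR-Tg (Postn, Bgn, Fbln2, Fbn1, Fstl1 and Igfbp7), Bgn not without WT replicate 4 (adjusted p = 0.0571) or B3AR-Tg replicate 5 (0.0516). Without B3AR-Tg replicate 7, Cspg4 (adjusted p = 0.0245) and Mpp6 (0.0238) passed too. Mfsd6 did not differ in mean by more than its spread, with 21.7 ± 4.02 CPM in WT animals and 21.2 ± 2.68 CPM in transgenic animals (log2 fold change -0.04, edgeR adjusted p = 0.898), although it followed the collagens within both groups (r = 0.952 over 8 WT and 0.842 over 8 B3AR-Tg animals). Among the 10 collagens, Col3a1 followed the mean of the other 9 most closely (r = 0.931 over 16 animals), and Col6a3 (0.313) and Col5a1 (0.267) least. For Col6a3 the value was -0.173 within WT and 0.741 within B3AR-Tg, and for Col5a1 it was 0.786 and -0.313.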

How the data were processed

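Values are whole-number counts per gene and animal, deposited by the authors without normalization. Per the labels' protocols, libraries were made with a stranded total RNA kit after ribodepletion, for paired-end NovaSeq reads. The submitters' processing notes name GRCm39 and Salmon without a version. Whether the whole numbers are rounded Salmon estimates, and how reads shared by several genes were assigned, is not given in the sources used here. Besides the RefSeq promoter windows on GRCm38.p6, no gene positions are given, because the annotation at hand (GENCODE M21, used for chromosome names and transcript lengths by gene ID) is on GRCm38.

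Columns were matched to animals by the name in each title. Counts were fitted with edgeR 4.0.16 (R 4.3.3), quasi-likelihood F test, genotype only, filterByExpr (minimum count 10, minimum total 15) and TMM scaling, and adjusted over all tested genes. Standard errors are the absolute log2 fold change over the square root of F, and 95% intervals use the test's degrees of freedom. CPM values use TMM library sizes, and log2 CPM a prior count of 2. Log2 ratios of collagens added 0.5 to each count, ratios to the fibroblast marker level are differences of log2 CPM, and their 95% intervals invert the exact test. Detection was set at 3 counts, which equals between 0.201 and 0.487 CPM and covers counting error only. In none of the 56 same-genotype pairs did counts agree within sampling noise (chi-square per gene 6.04 to 59.0), and all 16 libraries were kept. The fits and exact tests were tested on simulated data before use. Python 3.11.15 with numpy 2.4.6 was used for permutations.

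The 10 collagens and all lists were chosen with earlier results of these data known. Genes named are the 10 collagens, up to 4 called genes per list with the smallest p-values, Nppa, and the 10 genes most like the collagens, and a few further list members were named after their values were seen. Alternatives covered scaling, filter, DESeq2 1.42.0, limma 3.58.1 (voom with sample weights), a replicate block, covariates and the removal of each animal. Protein sequences were not used here.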

Additional observations from a re-analysis of the deposited data

Results flagged for a closer look

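Every group of 8 animals was searched, on log2 CPM or log2 ratios, for an extreme animal set apart from the rest, by the ratio of its gap to the whole range and Dixon's 95% critical value. This held in 7 of 124 groups, where chance at 1 in 20 gives about 6.2. Col1a1 in WT replicate 6 was at -1.02 log2 CPM, against 1.11 to 3.02 in the other WT animals, and the log2 ratio of Col1a1 over Col1a2 in that animal was -3.46, against -1.64 to -0.99. The library held 2 counts of Col1a1.

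B3AR-Tg replicate 2 was low for Col3a1 (1.04 log2 CPM, others 2.15 to 3.05), Col6a1 (-0.64, others 0.74 to 1.83) and Fstl1 (-0.64, others 1.29 to 2.86), and its fibroblast marker level was the lowest of the 16 animals, at -1.54. Col5a1 in B3AR-Tg replicate 6 was at 0.74 log2 CPM, against 1.77 to 2.46 in the rest of its group. Cspg4 in B3AR-Tg replicate 7 was high, at 4.33 log2 CPM against 2.44 to 3.26.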

How the results depend on the processing

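Each of the 10 collagens kept a negative log2 fold change under every alternative in which it was tested. The 7 called collagens stayed called in all alternatives that tested them except the fibroblast marker covariate and a threshold of 0.01, at which 5 were called. With that covariate 0 collagens and 9 genes in all were called. A filter of at least 5 CPM in 8 animals left 1 collagen tested and 1 called, because fewer genes were tested. DESeq2 and limma voom each called 9 collagens, adding Col6a3 (adjusted p = 0.0135 and 0.0235) and Col14a1 (0.0176 and 0.0170). Leaving out each animal in turn gave 7 to 9 called collagens, 272 to 675 called genes beside 537, and 0 to 1 ratios past the threshold. The lowest counts of genes came without WT replicate 4 (272), B3AR-Tg replicate 5 (277) and B3AR-Tg replicate 8 (345), and the cause was not tested. With the replicate block, 230 genes and 7 collagens were called, where the replicate number comes from the titles and belongs to different animals. Same-numbered animals correlated between -0.219 and 0.0935 in their deviations from the genotype means. Whether they shared a step of processing is not given in the labels and was not tested. The replicate block also ended the calls of Col4a1 (adjusted p = 0.0606), Col15a1 (0.0619), Col18a1 (0.125), Fn1 (0.0679), Itga1 (0.056), Cilp (0.0554) and Emcn (0.0529). Of 10 myocyte markers 1 was called, Ryr2, which was higher in B3AR-Tg (log2 fold change 0.46, edgeR adjusted p = 0.0359). Its call was lost with the replicate block (0.129). The Ryr2 call was also lost without WT replicate 1, 2, 4 or 8, or B3AR-Tg replicate 1, 4, 5 or 8 (adjusted p = 0.0574 to 0.083). Library size scaling without TMM turned the split of calls from 222 higher and 315 lower to 346 higher and 165 lower, with 7 collagens still called lower, and ended the calls of Col18a1 (adjusted p = 0.0514), Itga1 (0.0549), Flt1 (0.0607) and Emcn (0.0637). Without a low-count filter Col18a1 missed the threshold (0.0554). With library size scaling Col1a2 passed with Nppa in WT (r = 0.832, exact permutation, adjusted p = 0.0407). Log2 fold changes changed sign for 4 genes that were not called. With the covariate these were Cspg4 (0.18), Mfsd6 (0.32), Plcb4 (0.07) and Mpp6 (0.01). The Mfsd6 log2 fold change was also at 0.03 with library size scaling, at 0.00 with voom, and between -0.08 and 0.03 with single animals left out (0.03 without WT replicate 2). Depth limits Col1a1 and Col14a1 most, with a median of 7.5 and 4 counts in B3AR-Tg libraries.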

Other observations

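Col1a1 was lower per kilobase of transcript than Col1a2 in all 16 animals, 8 WT and 8 B3AR-Tg, although the type I molecule holds more alpha 1 than alpha 2 chains. Col5a1 exceeded Col5a2 per kilobase in 3 of 8 WT and 6 of 8 B3AR-Tg animals. A pair of collagen genes outside the 10, Col9a1 and Col19a1, held 0 counts in every library.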
